A study of Macaca mulatta with 10 samples.

Results

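Enzymes that turn ammonia into urea, and others that handle glutamate, glutamine nitrogen or ornithine, were examined in liver of rhesus macaques (Macaca mulatta). The set was 9 enzymes, named CPS1, OTC, ASS1, ASL, ARG1, NAGS, GLS2, OAT and GLUD1. Its members on the array were all probe sets to which the platform annotation of 2016 gives exactly 1 symbol, when that symbol is one of the 9. This gave 12 probe sets of 8 genes among the 52865 probe sets of the array. OTC, GLS2, OAT and GLUD1 had 2 probe sets each and ASS1, ASL, ARG1 and NAGS had 1 each. CPS1, the enzyme of the first committed step, had no probe set paired with its symbol and is not analysed here. The gene IDs of the other genes were found in the current reference gene table, but that of the GLUD1 probe sets was not, so their name rests on the annotation of 2016.

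The 5 brain-dead animals were 2 females and 3 males, and the 5 living-donor controls were 3 females and 2 males. Brain-dead animals 1, 2, 4 and 5 were 7, 18, 7 and 7 years old, and animal 3 was of unstated age. Controls 1 to 5 were 16, 10, 4, 20 and 10 years old, so ages were not matched. A balloon inflated outside the dura raised the pressure in the skull of the brain-dead animals, and blood pressure was then supported by fluid plus vasopressin, dopamine or the pair of them. The sample labels give 6 h of this state, the design text 5 h. Controls were sedated, anaesthetised and ventilated for 1 h, so brain death cannot be told apart from time under ventilation and drugs. Livers of both groups were flushed in place with preservation solution, and no animal carried a genetic change that the labels name.

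The urea cycle runs in the periportal hepatocyte, beginning in the mitochondrion and ending in the cytosol. There CPS1 joins ammonia with bicarbonate once NAGS has made its activator N-acetylglutamate, OTC adds the product to ornithine, and the cytosolic enzymes ASS1, ASL and ARG1 complete the turn and release urea and ornithine. GLS2 and GLUD1 supply ammonia inside the same mitochondria, while OAT, most abundant around the central vein, takes ornithine out of the cycle into glutamate.

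Values are MAS5 signals, a brightness per probe set that the authors scaled to a common mean on each array, with 1 array per animal. Array medians lay between 175 and 215 in brain-dead animals and between 184 and 227 in controls. Precision is limited by the number of arrays. Of 10 hepatocyte markers, 7 had a probe set with their symbol, and all 7 were above the filter for dim probe sets. Their sum lay between 551915 and 664630 in brain-dead animals and between 631171 and 786993 in controls. By the brightest probe set of each gene, none of these 7 passed the test in limma described below. At an unadjusted p under 0.05, 3 were lower, as were 13.2% of all 9835 genes measured. The probe sets of SERPINA1 disagreed, since 1 dimmer one rose by 1.17 ± 0.32 on the log2 scale (limma's Benjamini-Hochberg adjusted p = 0.0464). Its others had changes below 0 that did not pass. Of 5 neutrophil markers 3 were measured, with sums of 7282 to 56248 in brain-dead animals and 461 to 5195 in controls. S100A8 and S100A9, which make up most of these sums, rose, where 2.90% of all genes did. CSF3R had a log2 change of 0.76 ± 0.34 that did not pass (limma's Benjamini-Hochberg adjusted p = 0.195), and MPO was below the filter. The pancreatic enzyme CPA1, 1 of 4 kidney and pancreas markers and the one above the filter, had a signal of 61216 in brain-dead animal 3, against at most 169 in the other brain-dead animals and 19.8 to 2519 in controls. Brain-dead animal 3 thus stood apart, and results are given without it below. The ratio of the 3′ to the 5′ probe set of actin, a measure of RNA integrity, was 1.15 to 1.38 in brain-dead animals and 1.24 to 1.41 in controls.

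All 12 probe sets passed the filter, which asked for signals over the median of the array on 5 or more of the 10 arrays. Of these, 4 were lower in brain-dead animals in limma, at an adjusted p under 0.05 after Benjamini-Hochberg, and none was higher, also at an unadjusted p under 0.05. They belonged to OTC, GLS2 and OAT. Over the 26653 probe sets tested, 3.39% were lower by the adjusted p, 2.72% were higher and 6.10% passed in all. By gene, with the probe set of highest mean standing for each, 3 of 8 members were lower, where 3.87% of 9835 genes were. The median log2 change was -0.46 over the 12 probe sets and -0.0027 over all tested, and 9 of the 12 had a change below 0, against 50.2% of all tested. In bulk liver, fewer cells of a type and less RNA per cell cannot be told apart.

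**Figure D1:**
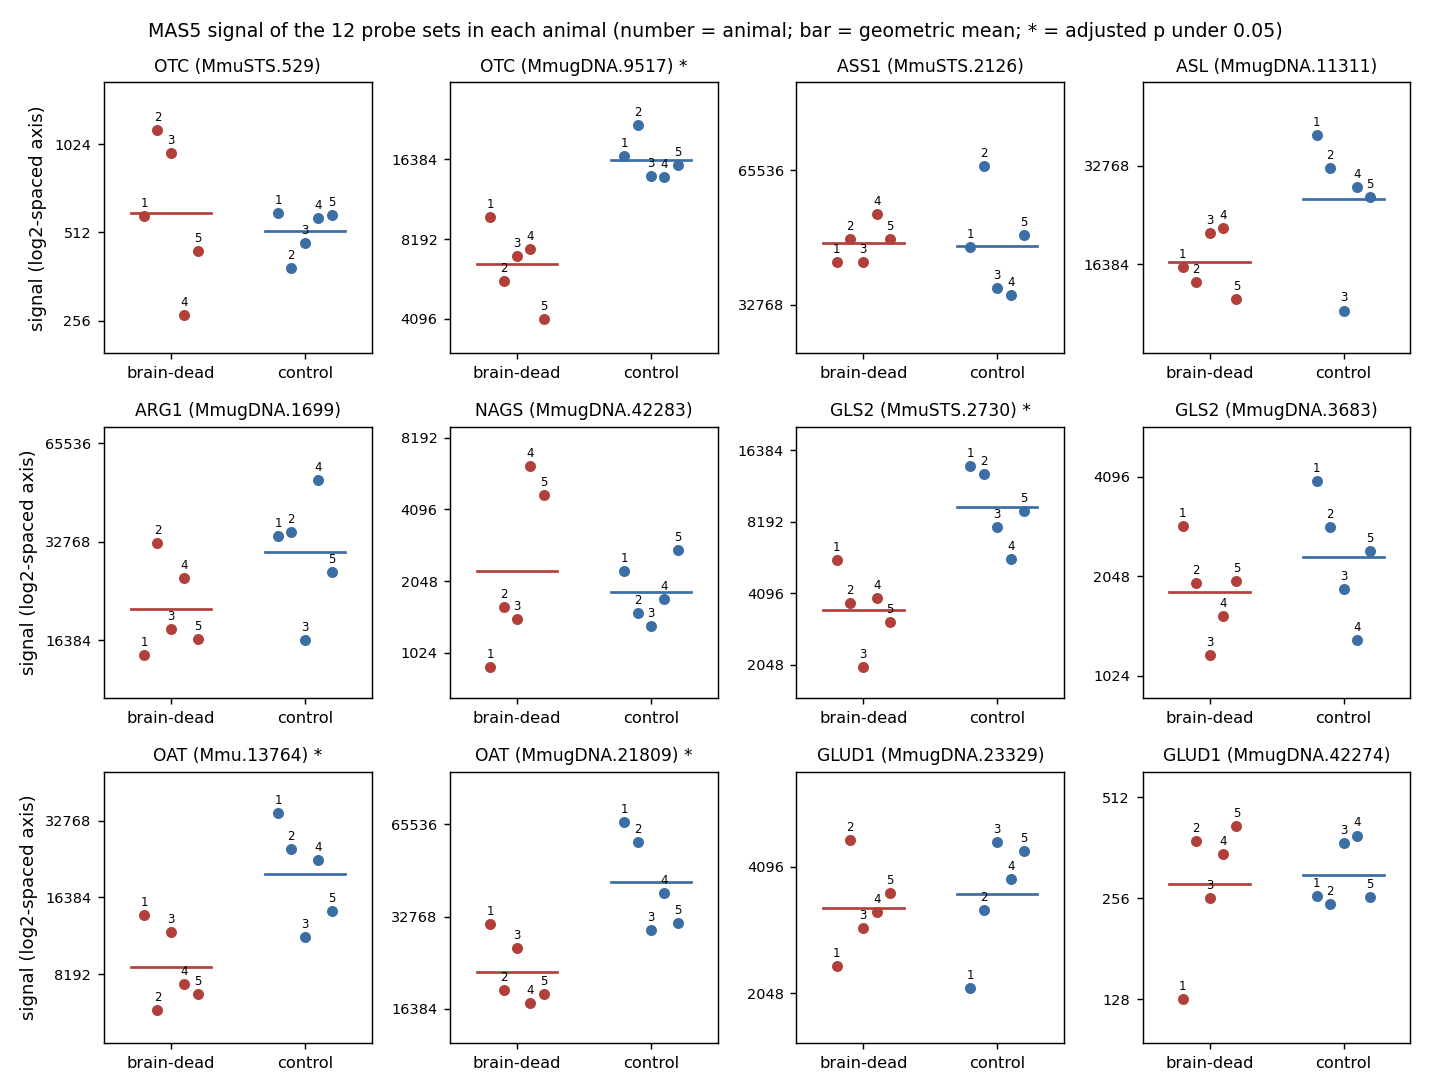
MAS5 signal of each of the 12 probe sets (vertical axes, log2-spaced) in the 5 brain-dead and 5 control animals. Points carry the animal's number, bars are geometric means and a star marks an adjusted p under 0.05. The groups lie apart for 1 probe set of OTC and 1 of GLS2 and overlap in the other 10.

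OTC, the mitochondrial enzyme that makes citrulline from ornithine and carbamoyl phosphate, fell in brain-dead animals by its brighter probe set (MmugDNA.9517). The signals were 9939, 5710, 7082, 7524 and 4104 in brain-dead animals 1 to 5. In controls 1 to 5 they were 16945, 22095, 14134, 14011 and 15643. Every brain-dead animal lay below every control, which held in that direction for 3.60% of all probe sets tested. The mean was 6872 ± 2173 in brain-dead animals and 16565 ± 3317 in controls (SD, n = 5 each). This was a log2 change of -1.31 ± 0.25 (SE), with a 95% interval from -1.84 to -0.78, and the signal was 40.4% of that in controls (limma's Benjamini-Hochberg adjusted p = 0.0116). The single animals ran from 24.8% to 60.0% of the control mean. This call held under all 23 other settings and omissions tried, with changes from -1.46 to -1.14 and adjusted p from 0.00585 to 0.0359 (limma's Benjamini-Hochberg).

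The dimmer OTC probe set (MmuSTS.529) gave a different picture. It had signals of 583, 1149, 953, 268 and 444 in brain-dead animals 1 to 5, against 599, 386, 469, 574 and 586 in controls 1 to 5. Brain-dead animals 2 and 3 lay above all controls and animal 4 below all of them. Its log2 change of 0.21 ± 0.35 (SE) was not past the threshold (limma's Benjamini-Hochberg adjusted p = 0.760). Over the 10 arrays, after each group's mean was taken off, the 2 OTC probe sets correlated at -0.14, so they did not follow the same animals. The difference between their changes was 1.52 ± 0.49 on the log2 scale (two-sided exact permutation test over animals, p = 0.0238, adjusted p = 0.152 over 32 pairs of probe sets).

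ASS1, the cytosolic enzyme that joins citrulline with aspartate, had nearly equal levels in both groups. Its probe set (MmuSTS.2126) had signals of 40889, 46111, 40756, 52285 and 46107 in brain-dead animals 1 to 5, against 44215, 66930, 35767, 34445 and 46896 in controls 1 to 5. All brain-dead animals lay inside the control range. The log2 change was 0.02 ± 0.20 (SE), with a 95% interval from -0.40 to 0.45 (limma's Benjamini-Hochberg adjusted p = 0.960). The interval leaves out a change as large as that of OTC. Its suffix marks probes shared by several transcripts, and in the human genome ASS1 has many processed copies, so the signal may hold other transcripts.

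ASL, which splits argininosuccinate into arginine and fumarate, and ARG1, the arginase that releases urea, had changes below 0 that did not pass the test. ASL (MmugDNA.11311) had signals of 16016, 14470, 20472, 21116 and 12850 in brain-dead animals 1 to 5 and of 40707, 32225, 11814, 28315 and 26282 in controls 1 to 5. Control animal 3, the youngest control, lay below all brain-dead animals, while the other 4 controls lay above all of them. The log2 change was -0.63 ± 0.30 (SE), with a 95% interval from -1.27 to 0.0063 (limma's Benjamini-Hochberg adjusted p = 0.215). ARG1 (MmugDNA.1699) had signals of 14747, 32528, 17785, 25394 and 16494 in brain-dead animals 1 to 5, against 34187, 35214, 16444, 50604 and 26595 in controls 1 to 5. All 5 brain-dead animals were below the control median, but animal 2 reached 99.8% of the control mean and controls 3 and 5 lay within the brain-dead range. ARG1 had a log2 change of -0.58 ± 0.30 (SE), with a 95% interval from -1.23 to 0.070 (limma's Benjamini-Hochberg adjusted p = 0.264).

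NAGS, the mitochondrial synthase of the activator of CPS1, was the member with the widest spread among brain-dead animals. Its signals (MmugDNA.42283) were 892, 1597, 1415, 6253 and 4714 in brain-dead animals 1 to 5, against 2266, 1502, 1327, 1714 and 2755 in controls 1 to 5. Brain-dead animals 4 and 5 lay above every control, animal 1 lay below every control, and the highest was 7.01 times the lowest, where in controls that ratio was 2.08. The NAGS log2 change was 0.30 ± 0.47 (SE), with a 95% interval from -0.72 to 1.31 (limma's Benjamini-Hochberg adjusted p = 0.751).

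GLS2, the liver-type glutaminase that frees ammonia from glutamine in periportal mitochondria, fell by its brighter probe set (MmuSTS.2730). The signals were 5633, 3742, 2004, 3897 and 3086 in brain-dead animals 1 to 5, against 14097, 13044, 7805, 5693 and 9112 in controls 1 to 5. The groups did not overlap, although brain-dead animal 1 at 5633 and control animal 4 at 5693 nearly met. The mean was 3672 ± 1325 in brain-dead animals and 9950 ± 3542 in controls (SD, n = 5 each). The log2 change was -1.44 ± 0.31 (SE), with a 95% interval from -2.11 to -0.77, and the signal was 36.9% of that in controls (limma's Benjamini-Hochberg adjusted p = 0.0202). It was no longer past the threshold without brain-dead animal 5 or without control animal 2 (limma's Benjamini-Hochberg adjusted p = 0.0514 and 0.0558, from 0.00823 to 0.0558 over 23 alternatives).

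The dimmer GLS2 probe set (MmugDNA.3683) had signals of 2909, 1948, 1186, 1558 and 1984 in brain-dead animals 1 to 5 and of 3982, 2882, 1879, 1314 and 2446 in controls 1 to 5. The groups overlapped, and the log2 change of -0.35 ± 0.32 (SE) did not pass (limma's Benjamini-Hochberg adjusted p = 0.543). With 1 animal left out that change ran from -0.55 without control animal 4 to -0.15 without control animal 1, and it was -0.19 without brain-dead animal 3. Unlike those of OTC, the 2 GLS2 probe sets varied alike within the groups, with a correlation of 0.92 over the 10 arrays after group means were taken off. Controls had the same order in both, while brain-dead animals 4 and 5 changed places. Their changes differed in size by -1.09 ± 0.13 on the log2 scale, with no overlap of the groups (two-sided exact permutation test, p = 0.00794, adjusted p = 0.0847 over 32 pairs). That p is the smallest that 5 animals against 5 can give.

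OAT, the ornithine aminotransferase that links ornithine to glutamate and proline, fell by both of its probe sets. The brighter one (MmugDNA.21809) had signals of 30995, 18833, 25844, 17082 and 18308 in brain-dead animals 1 to 5, against 66975, 57626, 29639, 39012 and 31099 in controls 1 to 5. The overlap was slight, since brain-dead animal 1 alone lay above the lowest control, animal 3. Its log2 change was -0.98 ± 0.26 (SE), 50.8% of the control signal (limma's Benjamini-Hochberg adjusted p = 0.0455). The dimmer one, whose suffix marks probes shared by several transcripts, had 14003, 5958, 12045, 7516 and 6884 in brain-dead animals 1 to 5. In controls 1 to 5 it had 34936, 25373, 11436, 23006 and 14550. Brain-dead animals 1 and 3 lay above control animal 3 and the other 3 below every control. Its log2 change was -1.21 ± 0.33 (SE), 43.4% of the control signal (limma's Benjamini-Hochberg adjusted p = 0.0466). The 2 probe sets correlated at 0.93 within groups over the 10 arrays.

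Both OAT calls were close to the threshold. That of the brighter probe set ended without brain-dead animals 2, 3, 4 and 5 and without controls 1, 2, 3 and 4 (limma's Benjamini-Hochberg adjusted p = 0.0723, 0.0660, 0.103, 0.108, 0.0946, 0.115, 0.0501 and 0.0507 in that order). That of the dimmer one ended without brain-dead animals 2, 3, 4 and 5 and without controls 1, 2, 4 and 5 (limma's Benjamini-Hochberg adjusted p = 0.0793, 0.0579, 0.0986, 0.113, 0.0991, 0.113, 0.0663 and 0.0505 in that order). Both changes remained below 0, from -1.11 to -0.81 for the brighter probe set and from -1.41 to -1.01 for the other when 1 animal was left out.

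GLUD1, the glutamate dehydrogenase that releases or fixes ammonia at glutamate, had no change past the threshold. The brighter probe set (MmugDNA.23329) had signals of 2380, 4743, 2934, 3201 and 3547 in brain-dead animals 1 to 5, against 2106, 3226, 4694, 3840 and 4474 in controls 1 to 5. The groups covered nearly the same range, and the log2 change was -0.11 ± 0.26 (SE), with a 95% interval from -0.68 to 0.46 (limma's Benjamini-Hochberg adjusted p = 0.846). The other probe set (MmugDNA.42274) was dim, above the array's median on 9 of 10 arrays. It had signals of 128, 378, 257, 348 and 419 in brain-dead animals 1 to 5 and of 261, 245, 373, 394 and 258 in controls 1 to 5. Its log2 change was -0.084 ± 0.33 (SE) (limma's Benjamini-Hochberg adjusted p = 0.909). Brain-dead animal 1 had the lowest value of all 10 arrays and animal 5 the highest.

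**Figure D2:**
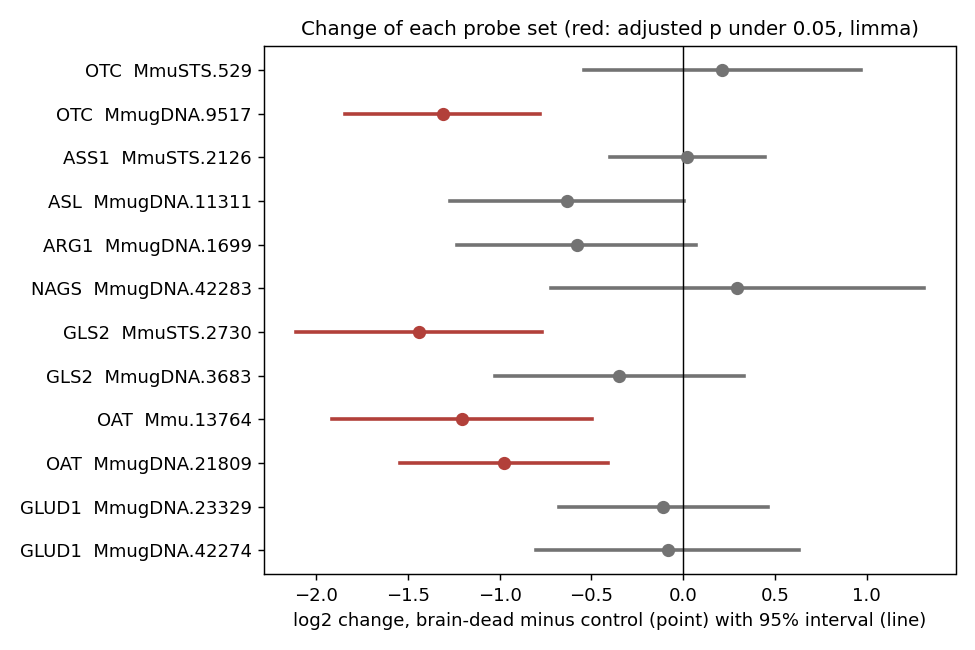
Log2 change of each probe set, brain-dead minus control (horizontal axis), with its 95% interval from limma, in red where the adjusted p is under 0.05. The intervals of 1 OTC, 1 GLS2 and both OAT probe sets lie below 0, and that of ASL ends at 0.0063.

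Without brain-dead animal 3, whose CPA1 signal stood out, the log2 changes were -1.34 for OTC and -1.24 for GLS2 by their brighter probe sets, both past the threshold (limma's Benjamini-Hochberg adjusted p = 0.0269 and 0.0458). Those of OAT were -1.04 and -1.32 and did not pass. Both animals numbered 1 deviated from their group means alike, with a correlation of 0.38 over all probe sets kept. Without that pair OTC changed by -1.44 and GLS2 by -1.47 (limma's Benjamini-Hochberg adjusted p = 0.0186 and 0.0333). The OAT changes were then -0.94 and -1.18 and missed the threshold (limma's Benjamini-Hochberg adjusted p = 0.0590 and 0.0651).

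Low values were spread over the brain-dead group. Brain-dead animals 1 to 5 lay below the control median in 10, 8, 11, 9 and 9 of the 12 probe sets. For every animal these include the 4 probe sets called lower, and the share over all probe sets tested was not computed. Among controls, animal 3 was the low one, below the control median in 10 of 12 and the lowest control in 5. Control animal 1 was the highest control in 6. Within groups, over the 10 arrays, the brighter OTC probe set correlated with the OAT probe sets at 0.61 and 0.60 and with the brighter GLS2 probe set at 0.54. ASL correlated with the OAT probe sets at 0.62 and 0.73, and ARG1 with ASL at 0.58. ARG1 followed the others little, at -0.019 with OTC, -0.034 with GLS2 and 0.10 and 0.16 with OAT. NAGS correlated at -0.44 with OTC and at -0.44 and -0.33 with OAT. GLUD1 ran the other way, at -0.92 and -0.87 between its brighter probe set and those of OAT. These coefficients share arrays and scaling and are a description of 10 livers.

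Whether members changed unequally was tested on the per-animal difference of log2 signals, over 28 pairs of genes and the 4 pairs of probe sets of 1 gene. The log2 change of OTC minus that of ASS1 was -1.33 ± 0.25 (two-sided exact permutation test, p = 0.00794, adjusted p = 0.0847). That of ASS1 minus that of GLS2 was 1.46 ± 0.29 (two-sided exact permutation test, p = 0.00794, adjusted p = 0.0847). In both pairs all brain-dead animals lay on one side of all controls. None of the 32 pairs had an adjusted p under 0.05 in the exact permutation test, while 8 had an unadjusted p under 0.05 and 3 stood at the smallest p that the design allows. With 3 of 32 pairs at that floor, even fully separated groups could not pass after adjustment. The adjusted outcome therefore does not decide whether those 3 pairs changed unequally.

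The 2 genes whose log2 signal followed a member most closely over the 10 arrays were found by Pearson correlation, given here without a test since they are the highest of all genes measured. For OTC they were LOC700017 and BTD, the biotinidase, both at 0.98 over all arrays and 0.90 within groups, with log2 changes of -1.31 ± 0.23 and -1.57 ± 0.28. The other BTD probe sets changed by 0.61 and 0.72, not past the threshold. For GLS2 they were MLXIPL, the carbohydrate-responsive transcription factor, at 0.98 and 0.93 within groups, and SLC23A3 at 0.97 and 0.91. MLXIPL had a log2 change of -1.16 ± 0.26 and SLC23A3 one of -1.78 ± 0.32. For OAT they were KLKB1, plasma prekallikrein, at 0.96 and 0.90 within groups, and a probe set annotated IL2 at 0.96 and 0.91. The IL2 probe set had mean signals of 69842 in brain-dead animals and 102751 in controls, while another probe set given that symbol had 22.7 in brain-dead animals and 23.2 in controls. One more had 48452 in brain-dead animals and 85063 in controls. The 3 probe sets of that symbol thus did not measure alike, and the symbol is uncertain. ASL was followed by RNF128 at 0.89 and by GOT1, a transaminase on the lists of nitrogen genes, at 0.87. For ARG1 these were CCS at 0.94 and SNX12 at 0.93, and for ASS1 RAVER1 at 0.89 and KCNH2 at 0.86. COPRS at 0.96 and PDLIM3 at 0.93 were closest to GLUD1, and C1H1orf131 at 0.88 and LOC703794 at 0.86 to NAGS.

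Around the cycle, 61 further genes of nitrogen handling were listed, of which 47 had a probe set with the symbol and 41 were measured. Of these 41 genes, 5 fell, 1 rose and 35 did not pass, where 3.87% of all genes fell and 2.90% rose. Their median log2 change was -0.61, against -0.0069 over all genes measured. These figures leave out genes below the filter. Without a filter 6 of 47 genes changed, 4 of them lower.

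The list of mitochondrial carriers and bicarbonate supply held 3 of the 5 falls, among 5 measured genes. All 3 were carriers of the inner membrane. SLC25A15, which exchanges ornithine for citrulline across the inner membrane, had a mean signal of 2021 ± 767 in brain-dead animals and 5516 ± 1402 in controls (SD, n = 5 each). Its log2 change was -1.50 ± 0.30 (limma's Benjamini-Hochberg adjusted p = 0.0159), and its other probe set fell by 2.01 ± 0.42 on the log2 scale (adjusted p = 0.0187). Both had no overlap between the groups. SLC25A13, the aspartate-glutamate carrier citrin that supplies aspartate to ASS1, had 5818 ± 1990 in brain-dead animals and 12603 ± 1294 in controls, and its log2 change was -1.18 ± 0.25 (limma's Benjamini-Hochberg adjusted p = 0.0188). Its other 2 probe sets had -1.01 and -1.02, which missed the threshold. SLC25A18, a glutamate carrier, had a log2 change of -1.39 ± 0.32 (limma's Benjamini-Hochberg adjusted p = 0.0240). The SLC25A18 call was lost without brain-dead animal 4, without controls 1, 2 and 3 and without the pair numbered 1 (limma's Benjamini-Hochberg adjusted p = 0.0508, 0.0571, 0.0525, 0.0588 and 0.0626). That of SLC25A15 ended without the pair numbered 1 (adjusted p = 0.0597). CA5A, the mitochondrial carbonic anhydrase that makes bicarbonate for CPS1, had a change above 0 of 1.34 ± 0.42 that did not pass (limma's Benjamini-Hochberg adjusted p = 0.0782) and was chosen for mention after its value was seen. It passed without control animal 4, with 1.54 (limma's Benjamini-Hochberg adjusted p = 0.0484). Over all probe sets 2289 changed without that animal, against 1627 in the main setting. CA5B was below the filter and had a log2 change of 1.75, with signals of 86.2 to 334 in brain-dead animals and 41.8 to 81.0 in controls.

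**Figure D3:**
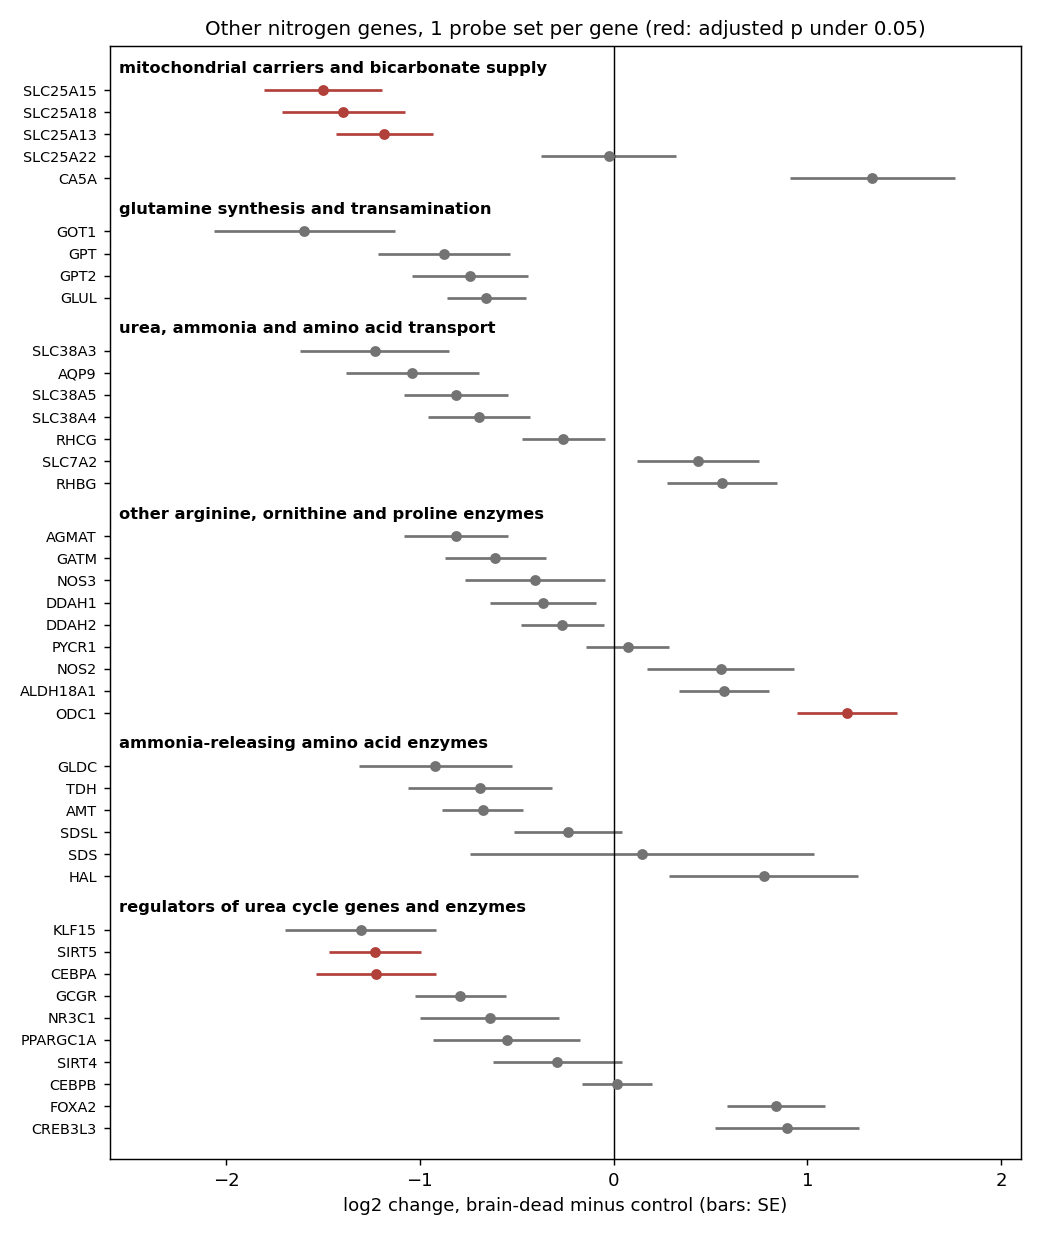
Log2 change of 41 other nitrogen genes, brain-dead minus control (horizontal axis), 1 probe set per gene with its standard error, grouped by list and in red where the adjusted p is under 0.05. The red points are SLC25A15, SLC25A18, SLC25A13, SIRT5 and CEBPA below 0 and ODC1 above 0.

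No gene of glutamine synthesis and transamination passed in limma, though all 4 measured had changes below 0 (median -0.81) with an unadjusted p under 0.05, where 13.2% of all genes were lower by that p. ASNS of this list was below the filter and had a log2 change of 1.56, with signals of 162 to 693 in brain-dead animals and 57.7 to 112 in controls. GLUL, the pericentral glutamine synthetase that captures ammonia which the cycle has left, had a mean signal of 20240 ± 1386 in brain-dead animals and 32837 ± 9089 in controls (SD, n = 5 each). The groups did not overlap, but its log2 change of -0.66 ± 0.21 did not pass (limma's Benjamini-Hochberg adjusted p = 0.0752). Single omissions turned 2 of these results, GLUL passing without control animal 4 with -0.80 and GOT1 without control animal 3 with -2.02 (limma's Benjamini-Hochberg adjusted p = 0.0252 and 0.0177). Over all probe sets 2289 changed without control animal 4 and 735 without control animal 3, against 1627 in the main setting. None of 7 genes of urea, ammonia and amino acid transport passed in limma (median -0.70), with 4 lower at an unadjusted p under 0.05. Without brain-dead animal 1 the channel AQP9 passed with -1.25 (limma's Benjamini-Hochberg adjusted p = 0.0486). None of 6 ammonia-releasing amino acid enzymes passed in limma either (median -0.45), with 2 lower at an unadjusted p under 0.05, and GLDC of the glycine cleavage system passed without control animal 4 with -1.27 (limma's Benjamini-Hochberg adjusted p = 0.0297). Of 9 other enzymes of arginine, ornithine and proline, ODC1, which turns ornithine into putrescine, rose by 1.21 ± 0.26 (limma's Benjamini-Hochberg adjusted p = 0.0199) and the other 8 did not pass. The ODC1 call ended without brain-dead animal 5, without the pair numbered 1 and with age and sex as covariates (limma's Benjamini-Hochberg adjusted p = 0.0501, 0.0543 and 0.0521). ARG2, the arginase of other tissues, had no probe set paired with its symbol and is not analysed here.

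Of 10 measured regulators, 2 fell, where 3.87% of all genes fell, and 8 did not pass. Among those 8, CREB3L3 (0.90 ± 0.37), FOXA2 (0.84 ± 0.25) and CEBPB (0.018 ± 0.18) had log2 changes above 0. SIRT5, a mitochondrial deacylase known in mouse to act on CPS1, had 676 ± 217 in brain-dead animals and 1558 ± 315 in controls (SD, n = 5 each). Its log2 change was -1.23 ± 0.24, the groups did not overlap, and the call held under all 23 alternatives (limma's Benjamini-Hochberg adjusted p = 0.0130, range 0.00577 to 0.0403). Its other probe set had -0.81 ± 0.26 and did not pass. CEBPA, a liver transcription factor needed for full urea cycle gene expression in mouse, had 8853 ± 2699 in brain-dead animals and 21576 ± 8046 in controls, a log2 change of -1.23 ± 0.31 (limma's Benjamini-Hochberg adjusted p = 0.0351). All 3 CEBPA probe sets passed, with changes from -1.30 to -1.23, yet the call of the brightest was lost under 12 of 23 alternatives. The animals whose removal ended it were brain-dead animals 2, 3, 4 and 5 (limma's Benjamini-Hochberg adjusted p = 0.0556, 0.0793, 0.0703 and 0.0784) and controls 1, 3 and 5 (0.0783, 0.0885 and 0.0603). The glucagon receptor GCGR had a log2 change of -0.79 ± 0.23 and the coactivator PPARGC1A one of -0.55 ± 0.38, neither of them called (limma's Benjamini-Hochberg adjusted p = 0.0624 and 0.403). Omissions added 3 calls among the regulators. GCGR passed without control animal 4 with -0.92, and CREB3L3 without brain-dead animal 2 with 1.24 (limma's Benjamini-Hochberg adjusted p = 0.0306 and 0.0250). KLF15 passed without brain-dead animal 4 with -1.59 and without control animal 4 with -1.48 (limma's Benjamini-Hochberg adjusted p = 0.0363 and 0.0410). Over all probe sets, against 1627 in the main setting, 2289 changed without control animal 4. Without brain-dead animal 2 it was 1839 and without brain-dead animal 4 it was 849.

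Markers of the hepatocyte zones moved with these enzymes in part. Of 7 periportal genes, all measured, 2 fell, ALDH1B1 (-1.50 ± 0.34) and HSD17B13 (-1.23 ± 0.32), where 3.87% of all genes fell. HAL (0.77 ± 0.49) and SDS (0.15 ± 0.89) had changes above 0, and PCK1, SLC38A3 and CDH1 had changes below 0. None of these others passed. The sum of the 7 was 104718 to 157729 in brain-dead animals and 166437 to 232129 in controls, with no overlap. PCK1 was the brightest of the 7, with mean signals of 65983 in brain-dead animals and 89063 in controls. Of 8 pericentral genes, 6 were measured and LGR5 fell (-2.43 ± 0.52) by the probe set of higher mean log2 signal, with -1.02 ± 0.33 for the other, which did not pass. That fall rests on dim signals in brain-dead animals, with a mean of 114, under all of their array medians. The control mean was 718, so this probe set passed the filter mainly through controls. RHBG had changes of 0.56 ± 0.28 and, by its other probe set, -1.34 ± 0.61, neither of them called. The sums of the 6 were 26024 to 34402 in brain-dead animals and 28727 to 60199 in controls. HAL, SDS and SLC38A3 of the periportal genes and GLUL and RHBG of the pericentral ones are also on the lists of nitrogen genes. The part of zonal makeup, or of the neutrophil genes named above, in the changes of OTC, GLS2 and OAT was not tested.

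**Figure D4:**
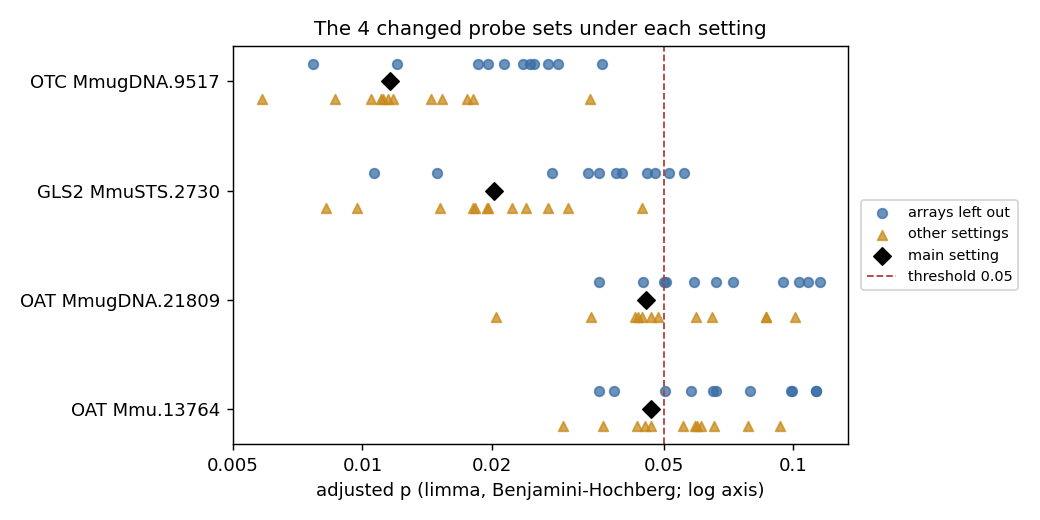
Adjusted p (horizontal log axis, limma with Benjamini-Hochberg) of the 4 changed probe sets in the main setting (diamond), with arrays left out (circles) and under other settings (triangles), with the threshold of 0.05 as a dashed line. All points of OTC lie below the line, 2 of GLS2 above it, and 14 and 16 of the OAT probe sets above it.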

How the data were processed

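Biotin-labelled liver RNA of 10 animals was measured on 1-colour arrays. The deposited intensity of each probe set was computed by the authors with MAS5 per the submitters' processing notes (version not given in the sources used here). A 2% trimmed mean of 1000.1 on every array shows a common scaling. Groups, numbers, sex and age come from the labels.

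The log2 of each deposited signal was taken, with no pseudocount. The 99 control probe sets were left out, and 26653 of 52865 passed the filter. The test was limma 3.58.1 in R 4.3.3 (eBayes with trend, no covariate), and p-values were adjusted by Benjamini-Hochberg over every probe set that passed. The fit was tested on simulated data. Exact permutation tests used scipy 1.17.1, and figures matplotlib 3.10.9. Errors marked SE in log2 changes, and those of other log2 changes without a mark, are standard errors of limma. Those of unequal changes are standard errors over animals.

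Named genes were all members, up to 3 changed genes of each list, 8 fixed genes and 2 genes most like each member. Members, lists and alternatives were chosen with earlier results of these data known. Alternatives were quantile normalization, centring, pseudocounts of 16 and 64, other filters, sex and age, a replicate block, eBayes settings, array weights and arrays left out. Where age entered, the brain-dead animal of unstated age was dropped. No sequence was used here.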

Additional observations from a re-analysis of the deposited data

How the results depend on the processing

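The count of member probe sets changed was 4 and ranged from 1 to 4 over 23 alternatives. It was 2 with quantile normalization, without a filter, without the trend in eBayes, with sex or with sex and age in the model, and without both animals numbered 1. The calls lost there were both of OAT. With 1 animal left out it ran from 1 to 4, with 1 without brain-dead animal 5 or control animal 2, and 2 without brain-dead animals 2, 3 or 4 or controls 1 or 4. Over all probe sets, 1627 changed, against 1056 without a filter, 1035 with sex and age, 674 without both animals numbered 1, and 660 to 2289 with 1 animal left out. Of the other nitrogen genes 6 changed, against 10 with array weights, 10 with a filter at the 75th percentile, 2 without both animals numbered 1, and 4 to 11 with 1 animal left out. Array weights added CA5A, FOXA2, GLUL and KLF15, and the stricter filter FOXA2, GCGR, GOT1 and KLF15.

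With the replicate number as a block, 3013 probe sets, 12 other nitrogen genes and 4 member probe sets changed. The nitrogen genes it added were AGMAT, AQP9, CA5A, FOXA2, GOT1 and SLC38A3 (limma's Benjamini-Hochberg adjusted p from 0.0242 to 0.0494). The animals share only a number in the labels. Same-numbered animals correlated in their deviations from group means at 0.38 for number 1 and at 0.064 to 0.13 for the others, and not every animal correlated best with its own number.

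With 1 animal left out, signs turned for small changes only, none of them past the threshold under any setting. ASS1 ranged from -0.068 to 0.17, NAGS from -0.071 to 0.63 (0.71 without both animals numbered 1), the brighter GLUD1 probe set from -0.29 to 0.0065 and the dimmer OTC probe set from -0.025 to 0.50. The dimmer GLUD1 probe set ranged from -0.23 to 0.20, with 0.15 without both animals numbered 1. The cause of these shifts was not tested. The 2 dimmest probe sets, those of OTC and GLUD1, lay below the filter at the 75th percentile and have no value there. The effect of brain death differed between the sexes for 0 of 26653 probe sets in limma after Benjamini-Hochberg adjustment, while 1015 had an unadjusted p under 0.05, none of them a member. Each sex had only 2 or 3 animals per group. For members, the standard error of that difference ran from 0.42 to 0.80 on the log2 scale, so the test cannot decide whether the sexes responded alike.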
